A study of Mus musculus with 9 samples.

Results

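Neutrophil granule genes encode the proteins that neutrophils store for killing and digesting microbes. The set held 10 genes (S100a8, S100a9, Ngp, Camp, Ltf, Lcn2, Elane, Mpo, Mmp8 and Mmp9), taken by gene symbol, of 18193 genes with a probe set of 1 symbol. All 10 were found, on 11 of 34945 such probe sets, Mmp9 having a pair. They were compared between thymus tumors described as resistant to XIST, the RNA that silences an X chromosome (3 arrays), thymus tumors (3 arrays) and normal mouse thymus (3 arrays). Total RNA of whole tissue was hybridised to the Affymetrix Mouse430_2 array. The labels give no strain, age, sex, genotype or treatment for any group, and do not say how the resistance arose or whether arrays came from separate animals, so each p-value rests on array-to-array spread alone, part or all of which may be technical.

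Neutrophils fill their granules in sequence as they mature in the bone marrow. Azurophil granules come first and hold myeloperoxidase (Mpo) and neutrophil elastase (Elane). Specific granules follow with lactoferrin (Ltf), the cathelicidin peptide precursor (Camp), neutrophilic granule protein (Ngp), lipocalin 2 (Lcn2) and the collagenase Mmp8, and gelatinase granules hold Mmp9. S100a8 and S100a9, which pair as calprotectin, are abundant in the cytosol rather than in granules. The transcripts of most granule proteins are made in marrow precursors and decline in circulating cells, whereas S100a8 and S100a9 are also expressed in monocytes, Lcn2 in epithelia and Mmp9 in macrophages and other cells.

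Upstream sequence is shown for S100a8, S100a9, Ngp and Camp, the 4 members called lower in both tumor groups below. Each line gives 250 bases before the start site, 5′ to 3′ on the gene's strand, from RefSeq on GRCm38.p6. Capitals mark matches, on either strand, to TTGCNNAA (a core of C/EBP sites, the family of granulopoiesis factors), GAGGAAG (a core of sites of ETS factors such as PU.1) or TATAAA (the TATA box).
S100a8 (chr3:90668821-90669070, plus strand): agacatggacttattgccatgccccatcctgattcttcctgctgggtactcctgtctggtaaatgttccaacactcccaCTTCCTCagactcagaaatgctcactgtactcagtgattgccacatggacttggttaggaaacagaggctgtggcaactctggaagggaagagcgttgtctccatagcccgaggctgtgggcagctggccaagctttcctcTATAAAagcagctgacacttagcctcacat
S100a9 (chr3:90695722-90695971, minus strand): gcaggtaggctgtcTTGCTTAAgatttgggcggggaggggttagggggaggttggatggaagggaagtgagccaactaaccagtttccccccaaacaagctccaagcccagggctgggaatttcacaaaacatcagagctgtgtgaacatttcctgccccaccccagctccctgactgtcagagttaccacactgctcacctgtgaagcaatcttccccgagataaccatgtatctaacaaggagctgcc
Ngp (chr9:110419558-110419807, plus strand): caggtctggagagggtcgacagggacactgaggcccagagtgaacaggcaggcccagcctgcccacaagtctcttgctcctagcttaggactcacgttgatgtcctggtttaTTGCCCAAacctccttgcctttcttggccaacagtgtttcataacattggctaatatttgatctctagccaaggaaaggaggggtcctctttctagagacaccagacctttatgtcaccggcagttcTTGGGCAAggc
Camp (chr9:109849457-109849706, minus strand): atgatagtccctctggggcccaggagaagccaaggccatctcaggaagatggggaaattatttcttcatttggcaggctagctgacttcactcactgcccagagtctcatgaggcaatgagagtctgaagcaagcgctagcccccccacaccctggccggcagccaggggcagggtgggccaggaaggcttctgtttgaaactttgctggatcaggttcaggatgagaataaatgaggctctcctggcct
Of the 9 members with a sequence (Mmp9 had none), 5 held TTGCNNAA, against 9.56% of all 32851 windows of this length. For GAGGAAG the count was 5 of 9, against 10.6% of windows. TATAAA occurred in 1 of 9, S100a8, against 12.4%. The C/EBP core was found for S100a9, Ngp, Ltf, Lcn2 and Mmp8, and Ngp held a pair of matches. The Camp window held none of the 3 motifs. These matches describe letters only. In the reference gene order S100a8 and S100a9 stood side by side on chromosome 3 with 0 protein-coding genes between them, while Camp, Ngp and Ltf lay on chromosome 9 with 8 and 20 such genes between neighbours.

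Signals are the deposited MAS5 values in arbitrary units. The median of an array lay between 13.9 and 25.8, with 5.48% to 14.5% of its values below 1. Poly-A spike-in rows had a mean signal of 2.01 to 2.95 in 4 arrays (resistant tumor 1, resistant tumor 2, tumor 1 and normal thymus 1) and 141 to 237 in the other 5. The arrays without spike-ins had the higher medians (23.6 to 25.8, against 13.9 to 17.8), so values within each set are given below. The ratio of the Actb 3' to 5' control signal was 1.63 to 3.16, highest in tumor 2. Thymocyte markers summed to signals of 8216 to 9717 in resistant tumors, 9348 to 9654 in tumors and 13661 to 15545 in normal thymus. Thymic epithelial markers summed to 115 to 165 in resistant tumors, 108 to 236 in tumors and 6832 to 7328 in normal thymus. Of 8 epithelial genes 7 were called lower in resistant tumors and 6 in tumors, among them Prss16, Psmb11, Krt8 and Ccl25. Of 7 thymocyte genes Cd8a, Cd8b1 and Cd4 were called lower and Ptcra, the pre-T cell receptor chain, higher in both.

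The neutrophil label was checked against these signals. In normal thymus 8 of the 10 members reached the array median on all 3 arrays. The exceptions were Mmp8, under the median on all 9 arrays, and Elane, over it on 1 normal array. In tumors and in resistant tumors, Mmp9 alone reached the median on all 3 arrays. Cxcr2, the chemokine receptor that defines mature neutrophils, was under the array median on all 9 arrays (0.765 to 6.19 in resistant tumors, 0.408 to 2.56 in tumors and 0.818 to 3.09 in normal thymus). Csf3r, the receptor for the granulocyte growth factor, was over the median on all 3 resistant tumor arrays, 1 tumor array and 1 normal array. These were the 4 arrays without spike-ins, at 26.2 to 43.7, and resistant tumor 3, at 17.7 against a median of 15.6. The spike-in sets are spread unequally over the groups, so this count cannot tell group from set. Csf3r was not called in resistant tumors (limma adjusted p = 0.491), in tumors (0.929) or between the tumor groups (0.943).

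Tumors and normal thymus were compared first. The calprotectin genes S100a8 and S100a9, the specific granule genes Ngp, Camp and Lcn2, and Mpo were called lower in tumors (limma adjusted p under 0.05). These were 6 of the 10 members, and 0 were called higher, although Mmp9 was higher at an unadjusted p of 0.0332. Over all genes 11.9% were called lower and 13.2% higher in that comparison. The median log2 change of the members was -3.79, or -1.78 with dim genes at their bounds, against -0.02 over all genes. Where a gene did not reach the median of any array in a group, the array medians limit its fold change, which is written with "at least". In bulk tissue, fewer cells of a type and less RNA per cell cannot be told apart.

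S100a8, the smaller calprotectin subunit, had signals of 65.0, 16.04 and 8.28 in the 3 tumors, against 329, 433 and 421 in normal thymus. The groups did not overlap, and tumor 1 stood above the other tumors. The log2 change was -4.25 ± 1.02 (SE, 3 arrays in each group, adjusted p by limma = 0.0196). Its probe set carries a suffix (_s_at) that marks probes shared with other transcripts. S100a9, its partner subunit, had 46.4, 8.88 and 6.36 in tumors, against 161, 223 and 227 in normal thymus, again with tumor 1 on top and no overlap. Its log2 change was -3.87 ± 1.05 (adjusted p = 0.0332). S100a8 was under the array median in tumor 3, and S100a9 in tumor 2 and tumor 3. The sizes of both changes therefore rest partly on signals near background.

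**Figure D1:**
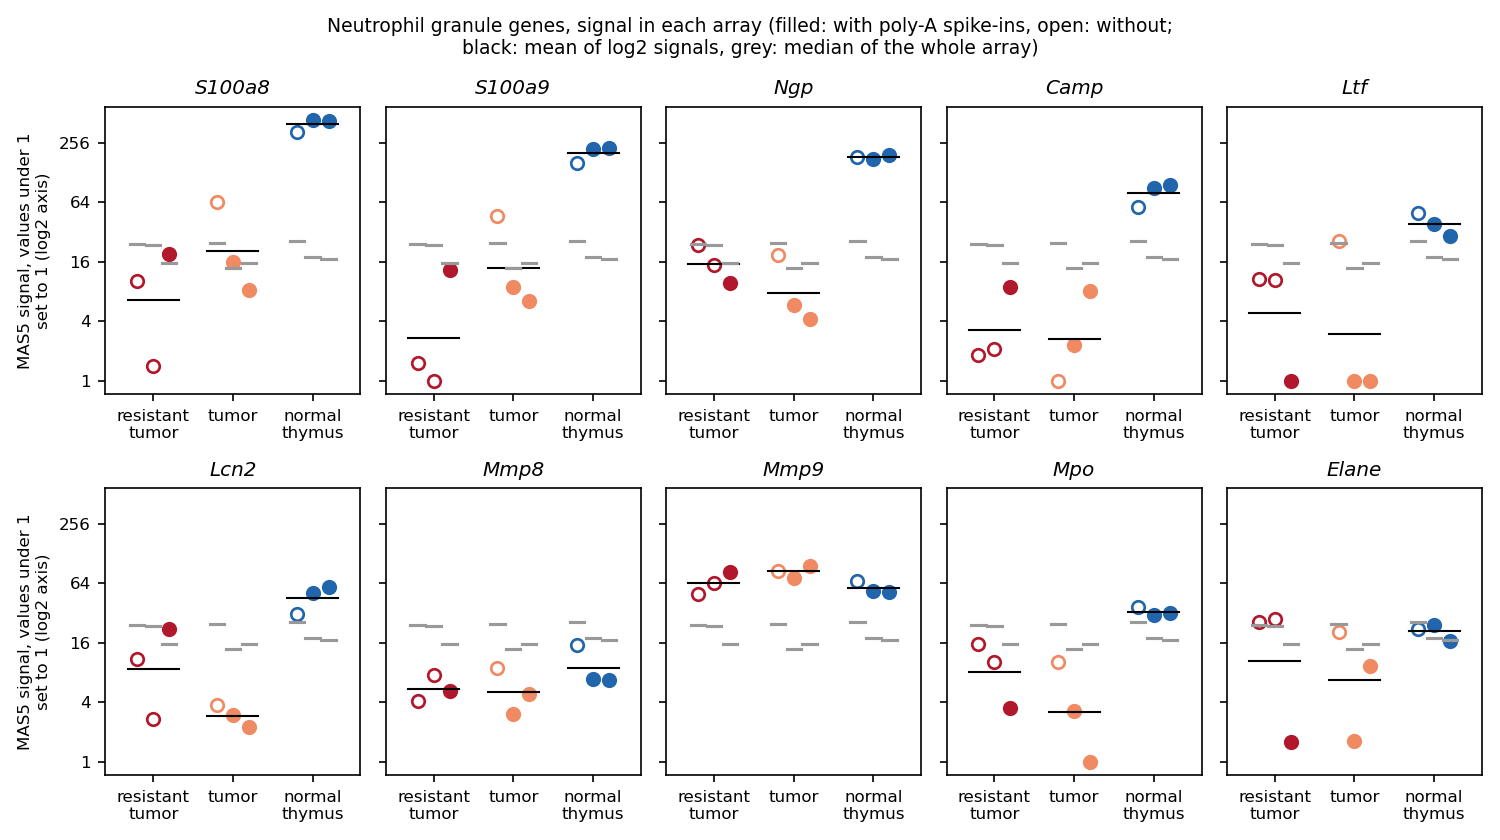
MAS5 signal of each member's brightest probe set in every array (log2 axis, values under 1 drawn at 1), by group, with open points for arrays without poly-A spike-ins, black lines for the mean of the log2 signals and grey ticks for the median of each array. S100a8, S100a9, Ngp, Camp, Ltf, Lcn2 and Mpo lie lower in all 6 tumor arrays of both kinds than in normal thymus, and Mmp9 stays above the array median everywhere.

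Among specific granule genes, Ngp, a secreted protein related to cathelicidins, gave 18.8, 5.85 and 4.25 in tumors, against 185, 177 and 191 in normal thymus. The normal arrays differed little from each other, and Ngp was at least 10.5-fold lower in tumors (limma adjusted p = 0.000803). Camp, the precursor of the antimicrobial peptide CRAMP, gave 0.664, 2.33 and 8.05 in tumors, against 57.9, 88.6 and 96.6 in normal thymus, at least 4.53-fold lower (adjusted p = 0.00514). Lcn2, which binds bacterial iron carriers, gave 3.80, 2.97 and 2.27 in tumors, against 31.4, 50.7 and 59.2 in normal thymus. It was at least 2.61-fold lower (adjusted p = 0.00634).

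Ltf, the iron-binding lactoferrin, gave 25.7, 0.397 and 0.585 in tumors, against 50.2, 38.5 and 29.4 in normal thymus. The groups did not overlap, but tumor 1 came close to the lowest normal array, and Ltf was not called (log2 change -3.70 ± 1.40, adjusted p = 0.107). Mmp8, the neutrophil collagenase, was dim everywhere, with 8.91, 3.07 and 4.89 in tumors and 15.2, 6.97 and 6.79 in normal thymus, and the groups overlapped.

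Of the azurophil genes, Mpo, which makes hypochlorous acid, gave 10.2, 3.27 and 0.772 in tumors, against 36.6, 30.5 and 31.7 in normal thymus, and was at least 1.88-fold lower (adjusted p = 0.0275). Elane, a serine protease, gave 20.4, 1.62 and 9.22 in tumors, against 22.3, 24.1 and 16.9 in normal thymus. Its groups overlapped and it was not called (adjusted p = 0.466).

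Mmp9, the gelatinase, gave 85.1, 73.1 and 96.5 in tumors, against 67.4, 53.1 and 51.9 in normal thymus on its brighter probe set. All tumor arrays were higher, but the log2 change of 0.56 ± 0.22 did not pass the test (adjusted p = 0.117). The dimmer probe set gave 49.7, 50.3 and 84.8 in tumors and 25.7, 38.8 and 40.7 in normal thymus, also without a call (adjusted p = 0.38). In all, 7 members lay lower in tumors without overlap, where 20.1% of all genes did, and 1 lay higher, where 20.7% did.

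The calls of S100a8, S100a9 and Mpo held without tumor 1 or any resistant tumor array. Without tumor 2, tumor 3 or any 1 normal array their adjusted p rose to between 0.0518 and 0.116, and 3 members (Ngp, Camp and Lcn2) were called. Without tumor 1 there were 7, Ltf among them (adjusted p = 0.0123), and Ltf was also called with a block for the spike-in set (0.00903).

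**Figure D2:**
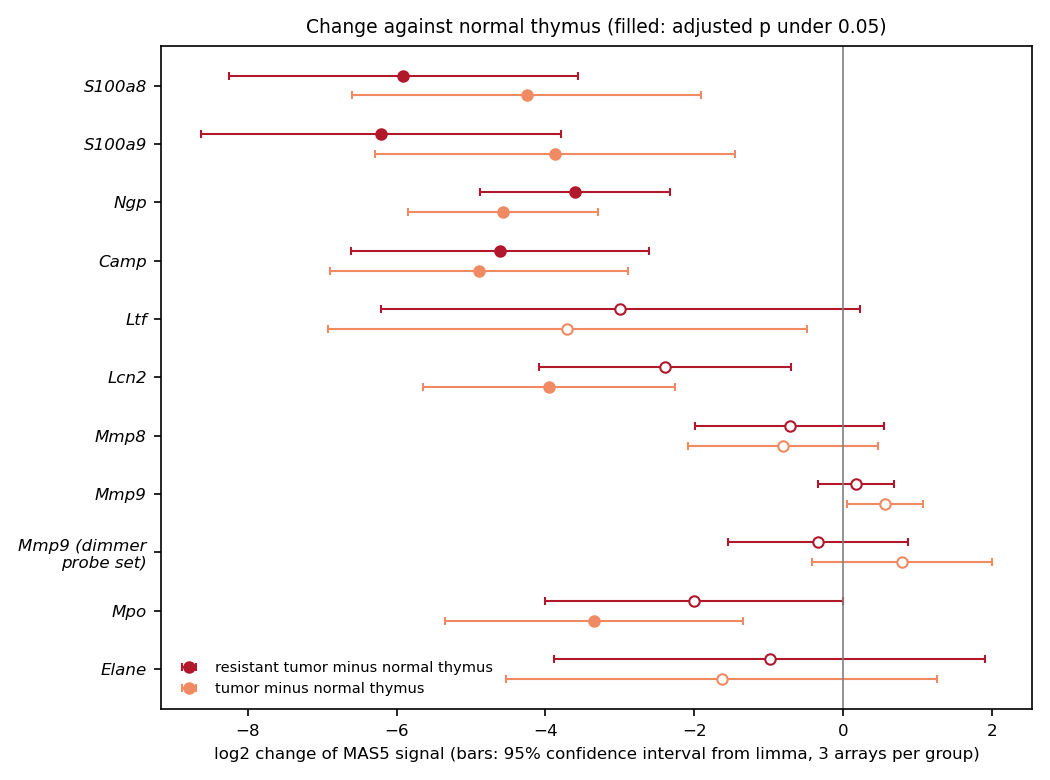
Fitted log2 change of MAS5 signal against normal thymus for the 11 probe sets, with 95% confidence intervals from limma (3 arrays per group) and filled points for an adjusted p under 0.05. Filled points are 6 members in tumors and 4 in resistant tumors, all below 0.

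Resistant tumors and normal thymus were compared next, with the same normal arrays. Here 4 members were called lower (S100a8, S100a9, Ngp and Camp) and 0 higher. The background was 12% of all genes lower and 13% higher. All 4 were also called lower in tumors. The median log2 change of the members was -2.69, or -1.46 with bounds, against 0.08 over all genes.

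S100a8 gave 10.2, 1.41 and 19.2 in resistant tumors, against 329, 433 and 421 in normal thymus, a log2 change of -5.91 ± 1.02 (SE, 3 arrays in each group, adjusted p by limma = 0.00441). S100a9 gave 1.51, 0.613 and 13.3 in resistant tumors, against 161, 223 and 227 in normal thymus, and was at least 9.72-fold lower (adjusted p = 0.0041). S100a8 was under the array median in resistant tumors 1 and 2, so the size of its change rests partly on signals near background. In both subunits resistant tumor 3 was the highest resistant array and resistant tumor 2 the lowest. Ngp gave 23.4, 15.0 and 9.78 in resistant tumors, against 185, 177 and 191 in normal thymus, at least 8.88-fold lower (adjusted p = 0.00258). Camp gave 1.83, 2.11 and 8.85 in resistant tumors, against 57.9, 88.6 and 96.6 in normal thymus, at least 3.82-fold lower (adjusted p = 0.00683).

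Lcn2 gave 10.9, 2.70 and 22.0 in resistant tumors, against 31.4, 50.7 and 59.2 in normal thymus. It narrowly missed the threshold (log2 change -2.40 ± 0.74, adjusted p = 0.0526), and passed without resistant tumor 3 (0.0188). Ltf gave 10.8, 10.5 and 0.827 in resistant tumors, against 50.2, 38.5 and 29.4 in normal thymus, and was not called (adjusted p = 0.189). Mpo gave 15.5, 10.1 and 3.51 in resistant tumors, against 36.6, 30.5 and 31.7 in normal thymus, and was not called either (adjusted p = 0.158). Both genes lay lower in all resistant arrays, and both passed with a block for the spike-in set (Ltf 0.00841, Mpo 0.02).

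Elane gave 26.1, 28.0 and 1.59 in resistant tumors, against 22.3, 24.1 and 16.9 in normal thymus, so a pair of resistant arrays exceeded all normal ones (adjusted p = 0.679). Mmp8 gave 4.12, 7.60 and 5.18 in resistant tumors, under the array median as in normal thymus. Mmp9 gave 49.3, 64.5 and 84.0 in resistant tumors, overlapping the 51.9 to 67.4 of normal thymus (adjusted p = 0.674). Its probe sets had fitted changes of opposite sign, 0.18 ± 0.22 and -0.34 ± 0.53 on the log2 scale. Of the 10 members 7 lay lower in resistant tumors without overlap, where 19.4% of all genes did, and 0 lay higher, where 20.5% did.

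The spike-in sets were also read apart. Without spike-ins, with 1 tumor and 1 normal array, the log2 difference between tumor and normal thymus was -2.34 for S100a8 and -1.80 for S100a9. With spike-ins, with 2 arrays of each, it was -5.21 for S100a8, and S100a9 was under the array median in both tumors. In resistant tumors S100a8 differed from normal thymus by -4.47 with spike-ins, and both arrays without spike-ins were under their medians. Ngp and Camp were under the median in every tumor array of either kind, so their log2 differences depend on background and on the floor of 1, and no size is given within the sets. Across the 10 members, 9 had a difference below 0 within both sets in tumors and 8 in resistant tumors. These counts include Mmp8, under the array median on all 9 arrays, and in tumors Elane, at -0.13 without spike-ins. The same counts over all genes were not made for any comparison. Elane gave 26.1 and 28.0 in resistant tumors, against 22.3 in normal thymus, without spike-ins, and 1.59, against 24.1 and 16.9, with them.

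**Figure D3:**
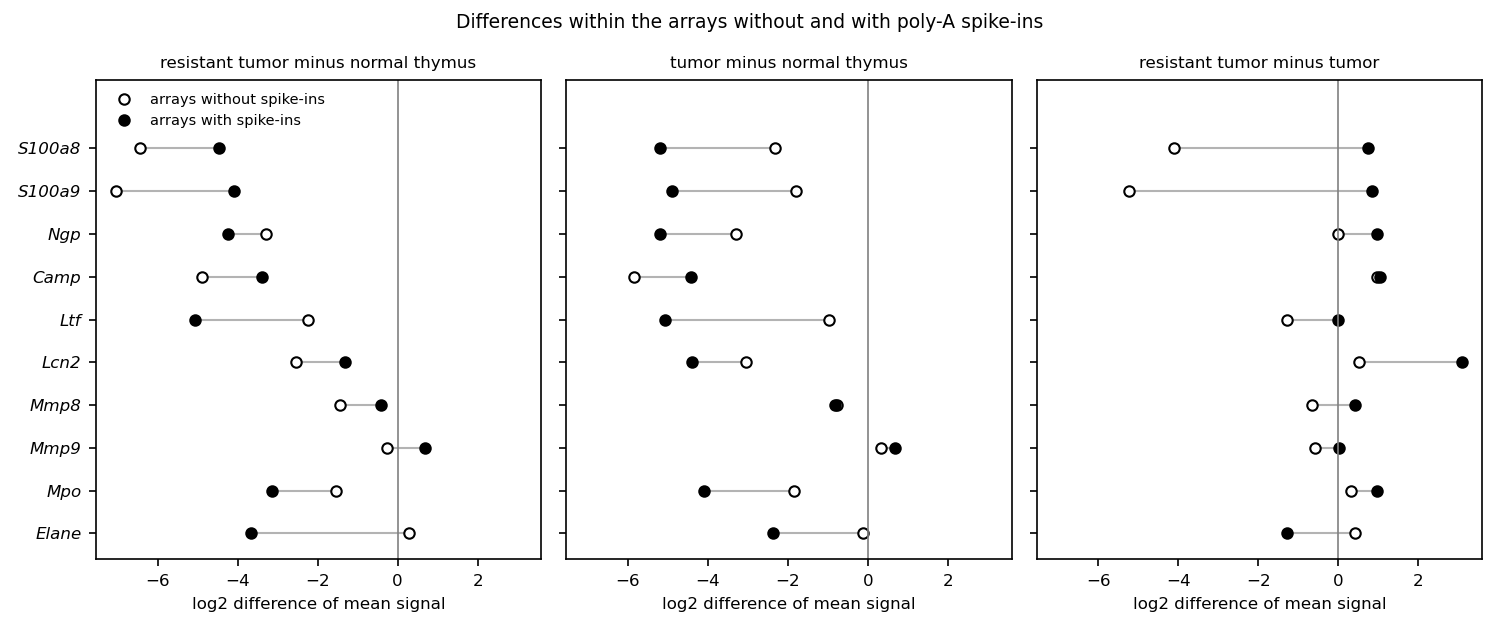
Difference of mean log2 signals within the arrays without (open) and with (filled) poly-A spike-ins, for the 10 members and 3 comparisons. S100a8, S100a9, Ngp, Camp, Ltf, Lcn2, Mmp8 and Mpo lie below 0 in both sets against normal thymus, and 7 members change sign or are at 0 in 1 set in resistant tumor minus tumor. Signals under 1 were set to 1, so the size of differences for dim genes depends on that floor.

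Resistant tumors and tumors were then compared directly. The test called 0 of the 10 members, and 0 had an unadjusted p under 0.05 by limma, where 0.033% of all genes were called lower, 0.0055% higher and 6.33% had such a p. No member separated these groups without overlap, where 4.31% of all genes were lower and 4.28% higher. S100a8 averaged 10.3 ± 8.91 in resistant tumors and 29.8 ± 30.8 in tumors (SD, n = 3 arrays each, limma adjusted p = 0.943), a log2 change of -1.66 with a 95% interval of -4.00 to 0.69. S100a9 averaged 5.15 ± 7.09 in resistant tumors and 20.5 ± 22.4 in tumors, a change of -2.34 (-4.76 to 0.08). Without spike-ins S100a8 gave 10.2 and 1.41 in resistant tumors, against 65.0 in the tumor, and with them 19.2, against 16.04 and 8.28, so its sign differed between the sets. Across the members, 7 of 10 had opposite signs in the sets or were at 0 in one of them. Lcn2 averaged 11.9 ± 9.66 in resistant tumors and 3.01 ± 0.767 in tumors, a fitted change of 1.55 (-0.14 to 3.25). Mmp9 averaged 66.0 ± 17.4 in resistant tumors and 84.9 ± 11.7 in tumors, a change of -0.39 (-0.89 to 0.12). S100a9 was under the array median in all resistant tumors and Lcn2 in all tumors, so their fitted changes rest on signals near background. The intervals are wide, and the arrays do not show that the groups are alike.

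Among the 6 tumor arrays of both kinds, S100a8 and S100a9 kept nearly the same order. Tumor 1 was highest in both (65.0 and 46.4), followed by resistant tumor 3 (19.2 and 13.3) and tumor 2 (16.04 and 8.88), and resistant tumor 2 was lowest (1.41 and 0.613). Ltf was also highest in tumor 1, at 25.7. Of these 6 arrays, S100a9 was over the array median in tumor 1 alone, and S100a8 in tumor 1, tumor 2 and resistant tumor 3. The rest of the order lies among signals near background. The signals of all 10 members summed to 143 to 168 in resistant tumors, 118 to 285 in tumors and 955 to 1131 in normal thymus. In normal thymus most of the sum was S100a8 (329 to 433) and S100a9 (161 to 227). Mmp9, which was not called, gave 49.3 to 84.0 of it in resistant tumors, 73.1 to 96.5 in tumors and 51.9 to 67.4 in normal thymus.

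Other genes of the neutrophil program were read from further lists. Beside their counts, 11.9% of all genes were called lower and 13.2% higher in tumors, and 12% and 13% in resistant tumors. Of 5 other azurophil genes measured, 1 was called lower and 1 higher in tumors. Gusb, a lysosomal enzyme, was the higher one (log2 change 0.60 ± 0.14, limma adjusted p = 0.0154). The lower one, the protease gene Ctsg, was under the array median in both groups. Of 10 other specific and gelatinase granule genes 3 were called lower in tumors and 0 higher. The other 7 were not called, among them Adam8, which lay higher in all tumor arrays than in normal thymus. Pglyrp1, a peptidoglycan-binding protein of specific granules, gave 1.77, 2.53 and 4.30 in tumors, against 35.0, 42.6 and 37.9 in normal thymus, at least 2.20-fold lower (adjusted p = 0.00194). Olfm4, which marks a subset of neutrophils and also some epithelial cells, was at least 1.15-fold lower, and Cybb, the oxidase heavy chain of phagocytes, changed by -1.17 ± 0.22.

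In resistant tumors 4 of these 10 genes were called lower and 1 higher. Chil3, a chitinase-like protein of neutrophils and macrophages, was at least 1.68-fold lower. Pglyrp1 was at least 1.85-fold lower, and Adam8, a leukocyte metalloprotease, was higher by 0.82 ± 0.24. Of 5 oxidase subunit genes 4 were called lower and 1 higher in both comparisons. Cybb is among the 4 and was also counted with the specific and gelatinase granule genes. Cyba, the light chain of the membrane complex, changed by -1.57 ± 0.30 in resistant tumors and by -1.87 ± 0.30 in tumors, and Ncf4, a cytosolic subunit, by 1.07 ± 0.12 and 0.50 ± 0.12. The cytosolic subunit Ncf1 changed by -1.17 ± 0.32 and -1.60 ± 0.32, and the GTPase Rac2 by -0.84 ± 0.22 and -1.12 ± 0.22. Rac2 and Cyba are also expressed in lymphocytes.

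Surface receptors and regulators did not move as a block. Of 10 receptor genes 1 was called lower and 1 higher in tumors, namely the leukocyte integrin chain Itgb2 (-2.29 ± 0.19) and the C-type lectin Clec4d (at least 1.45-fold higher), and 8 were not called. In resistant tumors Itgb2 (-1.88 ± 0.19) and the decoy receptor Il1r2 (at least 1.05-fold) were called lower and Clec4d (at least 1.43-fold) higher. Of 6 transcription factor genes Runx1 was called higher and Gfi1 lower in both comparisons. Runx1 changed by 1.48 ± 0.15 in resistant tumors and 1.80 ± 0.15 in tumors. Gfi1 changed by -0.39 ± 0.10 in resistant tumors and -0.44 ± 0.10 in tumors, and both factors also act in T cells. Spi1, which encodes PU.1, gave 43.9 to 61.4 in resistant tumors, 46.2 to 58.7 in tumors and 50.8 to 54.4 in normal thymus, and was not called.

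**Figure D4:**
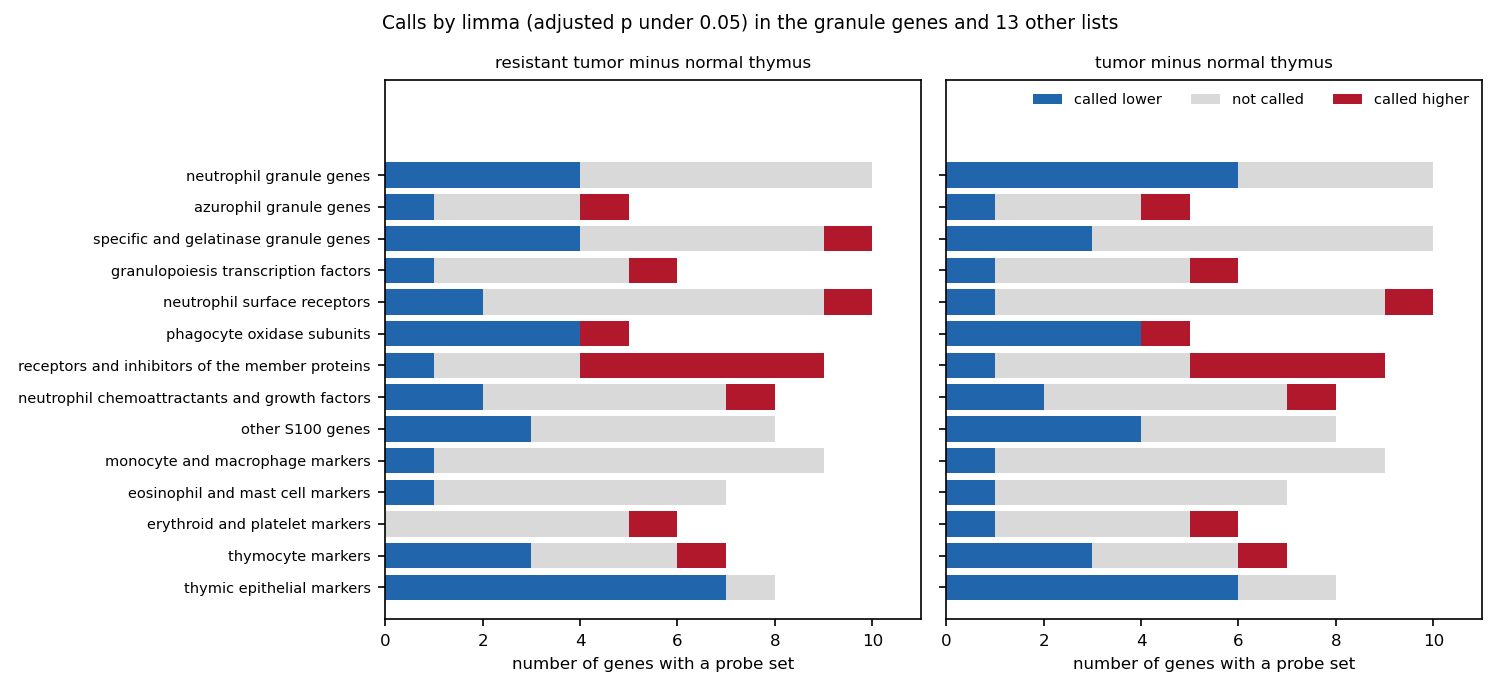
Number of genes called lower (blue), not called (grey) and called higher (red) by limma in the 10 granule genes and 13 other lists, for resistant tumor and for tumor against normal thymus. The granule genes have 4 lower calls in resistant tumors and 6 in tumors, and monocyte and macrophage markers have 1 in each.

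Proteins that bind, inhibit or attract were listed too. Of 9 receptor and inhibitor genes, 4 were called higher and 1 lower in tumors, and 5 higher and 1 lower in resistant tumors. Timp1, an inhibitor of Mmp8 and Mmp9, changed by 2.78 ± 0.52 in resistant tumors and 2.85 ± 0.52 in tumors. Slc22a17, a receptor for lipocalin 2, changed by 1.93 ± 0.26 and 2.34 ± 0.26. Bsg, a surface protein that binds S100A9 in human cells, changed by 0.73 ± 0.20 and 0.82 ± 0.20. Serpinb1a, an inhibitor of elastase, gave 0.779, 1.01 and 15.7 in resistant tumors and 1.03, 2.48 and 0.55 in tumors, against 59.3, 57.8 and 61.5 in normal thymus. It was at least 3.41-fold lower in tumors (adjusted p = 0.00662). Of 8 chemoattractant and growth factor genes 2 were called lower and 1 higher in both comparisons. Cxcl12, which holds neutrophils in the marrow, changed by -3.86 ± 0.51 in resistant tumors and -4.40 ± 0.51 in tumors. Csf3, the granulocyte growth factor, was over the array median on 2 of 3 arrays in either tumor group and on 0 of 3 in normal thymus, with a call in both (at least 1.47-fold higher in resistant tumors). Csf2, another growth factor, was called lower in both but was under the array median throughout.

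Of 8 other S100 genes, 3 were called lower in resistant tumors and 4 in tumors, and 0 were called higher. S100a1 changed by -2.81 ± 0.12 and -2.89 ± 0.12, S100a10 by -2.94 ± 0.57 and -2.35 ± 0.57, and S100a16 by -1.29 ± 0.24 and -1.18 ± 0.24. S100a3, called lower in tumors, was under the array median in both groups. S100a6 was not called, with 235 to 610 in resistant tumors, 245 to 476 in tumors and 145 to 172 in normal thymus.

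Markers of other cells that share some of these transcripts stood as follows. Of 9 monocyte and macrophage markers 1, the phagocytic receptor Mertk, was called lower in each comparison (-1.77 ± 0.25 in resistant tumors and -1.44 ± 0.25 in tumors) and 0 higher. Their summed signal was 770 to 1530 in resistant tumors, 759 to 1266 in tumors and 1160 to 1426 in normal thymus. Of 7 eosinophil and mast cell markers 1 was called lower in each comparison, Prg2 in resistant tumors and Cpa3 (at least 3.17-fold) in tumors. Prg2 was under the array median in every array. The summed signals of these markers were 15.3 to 53.0 in resistant tumors, 9.97 to 62.2 in tumors and 66.9 to 99.1 in normal thymus. Of 6 erythroid and platelet markers, the platelet chemokine gene Pf4 was called higher in both comparisons (2.66 ± 0.32 in resistant tumors and 2.40 ± 0.32 in tumors), and the erythroid heme enzyme gene Alas2 was called lower in tumors (-3.00 ± 0.69). The summed signal of that list was 272 to 552 in resistant tumors, 234 to 412 in tumors and 128 to 153 in normal thymus. In both tumor groups most of it was Pf4, at 233 to 497 in resistant tumors, 204 to 360 in tumors and 44.4 to 59.0 in normal thymus, and the median change of the list was -0.03 in resistant tumors and -0.10 in tumors. The part of these cells in the granule gene values was not tested.

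Across the 9 arrays, the mean standardised profile of the 10 members was most like those of Fam83h, Slc7a11, Smim10l1, Ikzf4, Pisd-ps3, Ppp1r9a, Cd69 and Synm among 11628 genes that reached the array median on at least 3 arrays, with Pearson r of 0.979 to 0.986 over 9 arrays. The profile did not stand for every member. The members' own r with it ran from -0.447 for Mmp9 and 0.555 for Elane to 0.956 for Ngp, and Mmp8 was not among the genes compared. The arrays fall into 3 groups, so r describes these 9 arrays only. Fam83h, Slc7a11, Smim10l1, Ikzf4 and Ppp1r9a reached the array median on 0 arrays of either tumor group and on all 3 normal arrays. They passed the filter only through normal thymus, as did the members S100a9, Ngp, Camp, Ltf, Lcn2 and Mpo. Their likeness to a profile high in normal thymus is therefore no separate support. Cd69, an activation marker of lymphocytes, gave 21.7 to 36.9 in resistant tumors, 16.4 to 49.9 in tumors and 129 to 218 in normal thymus.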

How the data were processed

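The deposited table holds a linear intensity for each probe set, which the authors computed with MAS5 according to the labels' processing notes. Its version and scaling target are not given in the sources used. In every array the mean after leaving out 2% of values at each end was 100.03, the form of a global scaling. Of 45101 rows, 34945 had 1 gene symbol. Rows with several symbols (932), with none listed (9160) and control rows (64) entered no test. Symbols were matched by gene identifier to RefSeq of GRCm38.p6 (18032 of 18193).

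Signals were floored at 1, converted to log2 and not filtered for low values. One linear model over all 9 arrays, with a mean per group and 6 residual degrees of freedom, was fitted in limma 3.58.1 (R 4.3.3) with empirical Bayes moderation and an intensity trend. Contrasts were two-sided, with Benjamini-Hochberg adjustment over all probe sets of the fit and calls at 0.05. The brightest probe set (highest mean log2 signal) stood for a gene. The model was tested on simulated data with independent normal noise for each probe set. These data held no spike-in set effect and no floor, so the test does not cover those features.

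For a bound, each array of the dim group took the gene's signal or the array median, whichever was higher, and the log2 means were compared. Genes dim in both groups, or with a bound below 1, have no fold. Changes with ± are log2 with SE. With no filter every member was tested; 9 of 10 would have passed one at the array median on 3 arrays (not Mmp8). Control rows were ordered differently in tumor 1 (correlation with the other arrays -0.259 as deposited and 0.75 in name order), and its spike-in rows were read in name order.

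The members, lists, tests and alternatives were chosen with earlier results of these data known. Of 122 listed genes, members included, 107 had a probe set. The text names all members, up to 4 called genes with the largest change in tumors per list, and the 8 genes of most similar profile. Csf3r, Cxcr2, Ncf4, Spi1, S100a6, Chil3, Adam8, Il1r2 and Prg2 were named after their values were seen. Alternatives were filters at the array median and 75th percentile, quantile normalization, equalised array medians, an offset of 50 on the signal, averaging a gene's probe sets, a fit without the trend, fits of the 2 groups compared, the spike-in set or replicate number as a block, and leaving out each array. Figures used matplotlib 3.10.9 (Python 3.11.15).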

Additional observations from a re-analysis of the deposited data

How the results depend on the processing

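Every call of Ngp and Camp in tumors and in resistant tumors, and of S100a8 and S100a9 in resistant tumors, held under each alternative in which the gene was fitted. S100a9, Ngp, Camp, Ltf, Lcn2 and Mpo reached the array median on at most 1 of the 6 tumor arrays of both kinds. They could not have passed a filter without the normal arrays, where they were high, and Elane needed a normal array too. For these genes the filtered fits are therefore no separate support. S100a8 was only just over the median in tumor 2 (16.04 against 13.9) and resistant tumor 3 (19.2 against 15.6). The number of members called lower in tumors was 6. It fell to 3 with the filter at the 75th percentile, which left S100a8, S100a9 and Ngp as the members tested, and was 3 to 7 when single arrays were left out. In resistant tumors it was 4, was 7 when 50 was added before the log, 6 with the spike-in block and 4 to 5 when single arrays were left out. The 7 and the 6 are given without the number of all genes called in resistant tumors under those settings, and describe the members only. In limma, 0 members were called higher against normal thymus, or either way between the tumor groups, under these alternatives. Over all genes, 4558 were called in tumors, 2898 with equal medians and 6947 with a spike-in block (3208 to 4952 without single arrays). In resistant tumors 4566 were called and 2695 with equal medians (3145 to 4796). Between the tumor groups 7 were called, 28 after quantile normalization, 11 with equal medians, 26 with the offset of 50, 42 and 20 with the filters, 13 with the mean over probe sets, 0 in a fit of both groups alone and 17 with the spike-in block (1 to 9). Equal medians moved the median change of all genes in tumors from -0.02 to 0.11 and between the tumor groups from 0.05 to -0.11.

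None of the reversals touched a called value. In resistant tumor minus normal thymus, Mmp9 was -0.080 as the mean over probe sets and ran from -0.016 to 0.37 without single arrays, and Elane ran from -1.69 to 0.38. In resistant tumor minus tumor, Camp was -0.27 after quantile normalization and -0.44 to 1.09 without single arrays. Elane was -0.092 with the spike-in block and -0.38 to 2.01 without single arrays. Mmp8 was -0.27 after quantile normalization, -0.067 with equal medians, -0.18 with the block and -0.28 to 0.49 without single arrays. Ltf was -0.016 with the offset, -0.25 with the block and -0.070 to 2.27 without single arrays. The cause was not tested. With the replicate number as a block, 7 members were called lower in tumors and 4 in resistant tumors, and 5410 and 5400 of all genes. Deviations of arrays with the same number correlated at -0.254 to 0.561. All correlations were positive within a spike-in set and negative between the sets. Resistant tumor 2 lies in another set than tumor 2 and normal thymus 2. The correlations therefore cannot decide whether the numbers pair the samples. Signals near or under 1 limit the members' log2 changes in tumors.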
